A study of Mus musculus with 10 samples.

Results

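Complement is a cascade of plasma and tissue proteins that marks surfaces for removal and can pierce membranes. 9 mouse genes of the cascade and its brakes were named for description: C3, C2, C4b, Cfb, Cfi, Cd55, Cd46, Cd59a and C5ar1. They were looked up by gene symbol in the platform's probe annotation, and each gene was read from its brightest probe set on average over all arrays. 8 of the 9 had a probe set paired with their symbol, 1 each, among 19505 genes measured. C3, the central component, is unnamed here and was not analysed.

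RNA came from mouse intestinal organoids, which are epithelia grown in culture from intestinal tissue. 5 samples were labelled KO for IκBα and 5 WT, and all 10 carry the mark P6, which the labels do not explain. IκBα, the product of Nfkbia, holds NF-kB transcription factors outside the nucleus. The labels give no strain, age, Cre driver or treatment, and do not tell separate animals or cultures apart among the replicates; the p-values therefore rest on a spread between samples that may be only technical.

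Each array gave 1 log2 level per probe set, and a change is KO minus WT on that log2 scale. The array medians over named probe sets lay between 6.53 and 6.67. Nfkbia, the targeted gene, was lower in KO with no overlap of the groups, by a change of -4.13 (limma, adjusted p = 2.81e-08). 3 Y-linked transcripts were also lower in the KO arrays, with changes between -5.20 and -2.42 (limma, adjusted p of 7.72e-05 or less). They read 3.25 to 4.27 in KO and 4.92 to 9.63 in WT, with no overlap of the groups for any of them. Y-linked signal and the KO label therefore cannot be told apart in any comparison of these groups. Epithelial markers were bright: the 8 on the list, among them Epcam, Cdh1 and Krt8, ranged from 7.84 to 12.8 over the 10 arrays. Of these 8, 3 rose (Krt18 by 1.43, Cdh1 by 0.45 and Krt8 by 0.43), 3 fell (Cdx2 with a change of -2.16, Vil1 with -1.03 and Cldn7 with -0.46) and 2 did not pass (limma, adjusted p under 0.05; 26.7% of all probe sets passed). Their part in the complement values was not tested. The 5222 negative control probe sets had medians of 4.30 to 5.10 per array and 95th percentiles of 7.17 to 7.77. No detection call was used, and these control levels are given beside dim genes as a description.

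Complement starts by 3 routes. In the classical and lectin routes, recognition proteins with attached proteases split C4 and C2, whose fragments form an enzyme that splits C3. In the alternative route, factor B joins deposited C3 to form a second such enzyme. Host cells protect themselves with factor I, which cuts deposited fragments, and with the membrane proteins CD55, CD46 and CD59. The small fragments released on the way act through receptors such as C5aR1. In the gut, epithelial cells are known to make several components and to carry the membrane regulators. Several of these genes are known NF-kB or interferon responders in other settings.

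Of the 8 measured complement genes, 1 rose in KO organoids, none fell, and 7 did not pass the test. The one that rose was C2, at 1.90-fold. Over all genes 26.7% of probe sets changed at this threshold (limma, adjusted p under 0.05), 15.0% upward and 11.7% downward, and the complement genes' share of 12.5% was not above that. The complement genes had a median change of 0.12, against -0.01 over all probe sets, and a median absolute change of 0.30, against 0.21. None of the 8 had 5 KO values that were all above or all below the 5 WT values, which was the case for 21.4% of all probe sets. At an unadjusted p under 0.05 the count was 2 of the 8, C2 and Cd46. At least 26.7% of all probe sets met that looser limit too, since an adjusted p is never below its unadjusted p.

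**Figure D1:**
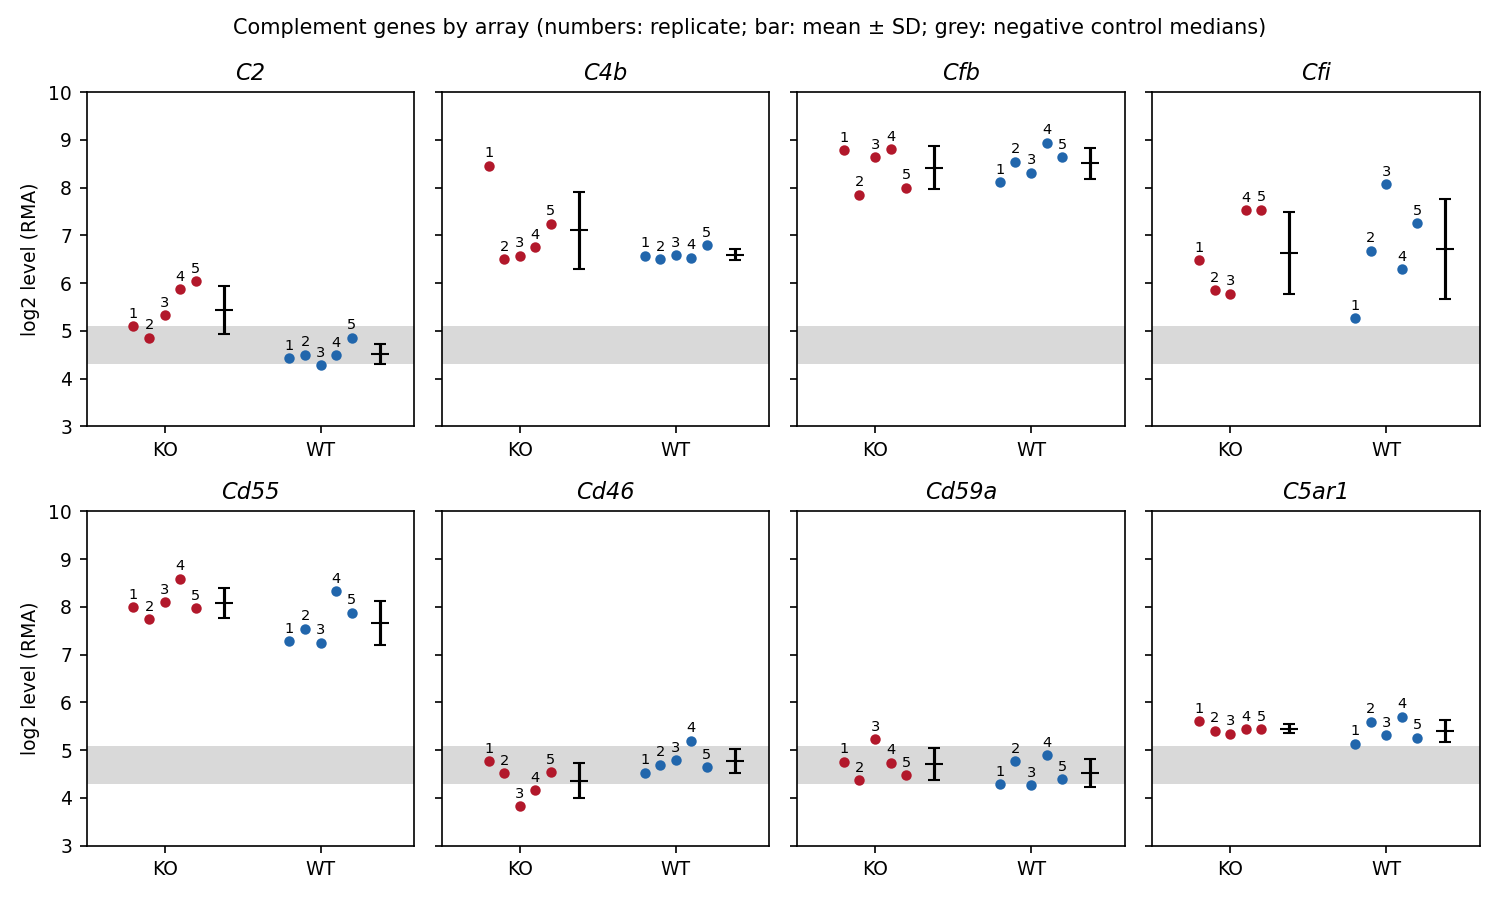
Log2 level (vertical axis, RMA) of the 8 measured complement genes in each of 5 KO arrays (red) and 5 WT arrays (blue). Numbers give the replicate, bars the mean ± SD, and the grey band the range of negative control medians over the arrays (4.30 to 5.10). C2 lies higher in KO, C4b has 1 high KO array, and Cfi spreads widely in both groups.

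C2 encodes the serine protease zymogen of the classical and lectin routes. Its levels were 5.09, 4.86, 5.33, 5.87 and 6.04 in KO replicates 1 to 5, against 4.43, 4.50, 4.29, 4.49 and 4.86 in WT replicates 1 to 5. 4 of the 5 KO arrays were above every WT array, and KO replicate 2 was level with WT replicate 5. The mean was 5.44 ± 0.50 in KO and 4.51 ± 0.21 in WT (SD, n = 5 each). The change of 0.93 had a standard error of 0.22 and a 95% confidence interval of 0.45 to 1.41 (limma, adjusted p = 0.00788). As a fold, that is 1.90 with an interval of 1.36 to 2.65. The change was larger than that of 86.6% of all probe sets. The call was kept in all 20 alternatives run, with changes of 0.77 to 1.07 (limma, adjusted p of 0.00242 to 0.0386). The WT mean lay inside the range of negative control medians, and no array of either group reached the 95th percentile of its negative controls.

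C4b encodes complement C4, the thioester protein that is deposited on surfaces and binds C2. It read 8.46, 6.50, 6.57, 6.75 and 7.24 in KO replicates 1 to 5, against 6.58, 6.50, 6.58, 6.53 and 6.79 in WT replicates 1 to 5. KO replicates 1 and 5 were above every WT array, and the other 3 KO arrays lay within the WT range. The change of 0.51 (standard error 0.32) had a 95% interval of -0.18 to 1.2, which did not pass (limma, adjusted p = 0.280). KO replicate 1 decided the size: without it the change was 0.17 (limma, adjusted p = 0.494). The spread itself was unequal, with an SD of 0.81 in KO and 0.11 in WT. In KO its SD exceeded that of 97.5% of all probe sets, and in WT that of 13.2%; the difference in spread was not tested. C4a, a near copy of C4b, read 6.54 in KO replicate 1, against 5.07 to 5.50 in the other KO arrays and 4.84 to 5.53 in WT. Its change of 0.36 did not pass (limma, adjusted p = 0.372), and it was 0.10 without KO replicate 1. For C4b only KO replicate 1 was above the 95th percentile of its negative controls, and for C4a no array was. Whether probes of the 2 copies share signal was not tested.

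Cfb encodes factor B, the protease of the alternative route. It is the neighbour of C2 on chromosome 17 in the RefSeq gene order (assembly GRCm38.p6, used for names and order only). Its levels were 8.78, 7.85, 8.64, 8.81 and 8.0 in KO replicates 1 to 5, against 8.11, 8.54, 8.31, 8.94 and 8.63 in WT replicates 1 to 5. The groups overlapped, with KO replicates 2 and 5 the lowest of the 10 arrays and WT replicate 4 the highest. Cfb was the only one of the 8 genes above the 95th percentile of the negative controls in all 10 arrays. The mean was 8.42 ± 0.46 in KO and 8.51 ± 0.32 in WT (SD, n = 5 each). The change of -0.09 had a 95% interval of -0.58 to 0.40, which is a fold of 0.670 to 1.32 (limma, adjusted p = 0.814).

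Cfi encodes factor I, the plasma protease that cuts deposited C3 and C4 fragments. Its levels were 6.47, 5.86, 5.78, 7.52 and 7.54 in KO replicates 1 to 5, against 5.27, 6.68, 8.07, 6.29 and 7.26 in WT replicates 1 to 5. WT held both the lowest and the highest of the 10 values. The SD was 0.86 in KO and 1.05 in WT, larger than that of 97.8% and 99.4% of all probe sets in the same group. The change of -0.08 had a standard error of 0.51 and a 95% interval of -1.21 to 1.05, or a fold of 0.433 to 2.07 (limma, adjusted p = 0.933). Its sign turned with single arrays: the change was -0.44 without WT replicate 1 and 0.26 without WT replicate 3.

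Cd55 encodes decay-accelerating factor, a lipid-anchored protein that takes apart the C3-splitting enzymes. It read 8.0, 7.74, 8.10, 8.59 and 7.97 in KO replicates 1 to 5, against 7.28, 7.54, 7.25, 8.33 and 7.88 in WT replicates 1 to 5. KO replicate 4 was the only KO array above all WT arrays, because WT replicate 4 lay higher than the other KO arrays. The change of 0.42 had a standard error of 0.22 and a 95% interval of -0.06 to 0.91, which did not pass (limma, adjusted p = 0.194). WT replicate 4 decided this call: without it the change was 0.59 (limma, adjusted p = 0.0385). Without it and KO replicate 2 the change was 0.68 (limma, adjusted p = 0.0231). They were the highest WT and the lowest KO array for Cd55, so leaving them out could only raise the change. Cd55b, the neighbouring copy of Cd55 on chromosome 1, averaged 8.97 ± 0.18 in KO and 8.66 ± 0.46 in WT (SD, n = 5 each). Its change of 0.31 did not pass (limma, adjusted p = 0.312).

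Cd46 encodes membrane cofactor protein, which helps factor I and which in mouse is found mainly in the testis. Its levels were 4.77, 4.51, 3.83, 4.16 and 4.54 in KO replicates 1 to 5, against 4.53, 4.70, 4.79, 5.20 and 4.65 in WT replicates 1 to 5. 3 KO arrays lay below every WT array, and the groups overlapped. The change was -0.41 with a 95% interval of -0.81 to -0.0047, unadjusted for other genes, and it did not pass (limma, adjusted p = 0.132). Both means, 4.36 ± 0.37 in KO and 4.77 ± 0.26 in WT (SD, n = 5 each), lay within the range of negative control medians. Cr1l, which encodes the broadly expressed mouse regulator Crry and lies next to Cd46, was brighter than the 95th percentile of the negative controls in all 10 arrays. It averaged 9.22 ± 0.17 in KO and 9.24 ± 0.12 in WT (SD, n = 5 each), and its change of -0.01 had a 95% interval of -0.26 to 0.23 (limma, adjusted p = 0.947).

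Cd59a encodes the lipid-anchored protein that stops the membrane pore from closing its ring. It read 4.76, 4.37, 5.22, 4.74 and 4.48 in KO replicates 1 to 5, against 4.29, 4.76, 4.26, 4.89 and 4.39 in WT replicates 1 to 5. The values interleaved apart from KO replicate 3, which was the highest. The change of 0.20 had a 95% interval of -0.20 to 0.59 and did not pass (limma, adjusted p = 0.491). Both means lay within the range of negative control medians. Its neighbouring copy Cd59b changed by -0.03 (limma, adjusted p = 0.891).

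C5ar1 encodes the receptor for the C5a fragment, best known from myeloid cells. It read 5.60, 5.41, 5.34, 5.44 and 5.44 in KO replicates 1 to 5, against 5.13, 5.60, 5.31, 5.70 and 5.26 in WT replicates 1 to 5. All KO values lay within the WT range. The change of 0.05 had a standard error of 0.12 and the narrowest interval of the 8 genes, -0.22 to 0.32 (limma, adjusted p = 0.826). The second C5a receptor gene C5ar2, its neighbour on chromosome 7, changed by -0.01 and the C3a receptor gene C3ar1 by -0.13 (limma, adjusted p = 0.971 and 0.612). C5ar1, C5ar2 and C3ar1 did not reach the 95th percentile of the negative controls in any array, so these small changes come from dim probe sets.

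**Figure D2:**
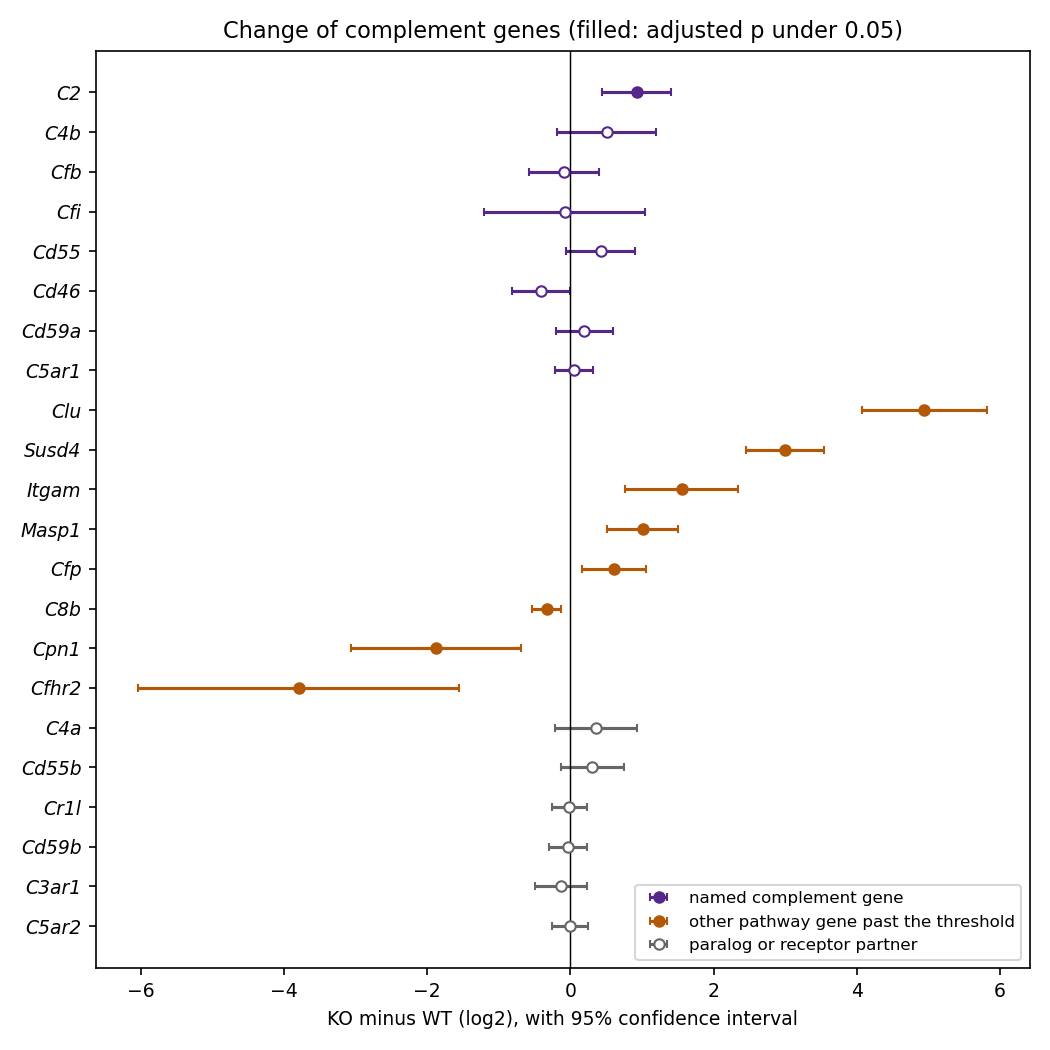
Change (KO minus WT, log2, horizontal axis) with its 95% confidence interval from limma for the 8 complement genes (purple), the 8 other pathway genes that passed (orange), and 6 paralogs or receptor partners (grey). Filled points passed at an adjusted p under 0.05. C2 is the only filled purple point, the purple interval of Cfi is the widest of the 8, and Clu and Cfhr2 mark the ends of the scale.

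Among the other genes of the pathway the changes that passed went both ways. Of 48 further genes on a list of the cascade 45 were measured; 5 rose, 3 fell and 37 did not pass, with a median change of -0.0029. Without WT replicate 1, 5 fell. The share that passed, 17.8%, was below the 26.7% of all probe sets. In these organoid RNAs, fewer cells of a type and less RNA per cell cannot be told apart.

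None of the 7 measured genes of the C1 complex, which starts the classical route, passed, with changes between -0.23 and 1.06. Of 8 genes of the lectin route, 1 rose, a share of 12.5%: Masp1, a protease attached to the recognition lectins. Over all probe sets 26.7% passed. Masp1 read 6.28, 5.35, 6.40, 6.0 and 6.90 in KO replicates 1 to 5, against 5.12, 5.25, 5.26, 5.17 and 5.08 in WT replicates 1 to 5. All KO values were above all WT values, with a change of 1.01 and a standard error of 0.23 (limma, adjusted p = 0.00583). The WT values spanned far less than the KO values, with an SD of 0.08 against 0.57 in KO. No array of either group reached the 95th percentile of its negative controls. Cfp encodes properdin, the protein that steadies the enzyme built from factor B. It did not reach that percentile in any array either, and changed by 0.61 (limma, adjusted p = 0.0478). That call was lost in 14 of 20 alternatives, among them those without KO replicate 1, 4 or 5 or without any 1 of WT replicates 2 to 5 (limma, adjusted p of 0.0709 to 0.114), and WT replicate 1, at 6.73, lay within the KO range of 6.29 to 6.90.

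Of 7 genes of the terminal components, which build the membrane pore, 1 fell and none rose. The 14.3% that passed compares with 26.7% of all probe sets. C8b, a chain of the pore complex, read between 5.38 and 5.58 in KO and between 5.72 and 6.03 in WT. The groups did not overlap, the change was -0.33 (limma, adjusted p = 0.0201), and no array reached the 95th percentile of its negative controls. The call was lost without WT replicate 2 (limma, adjusted p = 0.0564) and with the replicate number as a block (limma, adjusted p = 0.0566), and the change did not pass when tested against 1.2-fold (limma, adjusted p = 0.735).

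Regulators held both the highest and the lowest change of the list. Of 12 measured, 2 rose, 2 fell and 8 did not pass; the 33.3% that passed compares with 26.7% of all probe sets. Clu, whose product clusterin binds the terminal complex besides acting as a chaperone, rose by 4.95 (limma, adjusted p = 2.44e-06). Susd4, which encodes a membrane protein known to inhibit complement, read 8.25, 7.82, 8.22, 8.56 and 9.42 in KO replicates 1 to 5, against 5.34, 5.68, 5.63, 5.18 and 5.44 in WT replicates 1 to 5. Its change of 3.0 with a standard error of 0.25 separated the groups without overlap (limma, adjusted p = 3.02e-06). Cpn1, the catalytic subunit of the carboxypeptidase that trims the C3a and C5a fragments, read 6.87, 5.90, 6.40, 8.16 and 9.27 in KO replicates 1 to 5, against 9.01, 8.90, 9.85, 9.31 and 8.94 in WT replicates 1 to 5. It fell by 1.88 on the log2 scale, with 4 KO arrays below all WT arrays (limma, adjusted p = 0.0228). The call was lost when KO replicate 1 or 3 or WT replicate 3 was left out (limma, adjusted p = 0.0514, 0.0534 and 0.0549), and with KO replicate 2 and WT replicate 4 left out (limma, adjusted p = 0.0726). Cfhr2 read 4.08, 4.05, 5.09, 7.69 and 5.87 in KO replicates 1 to 5, against 5.18, 10.48, 9.42, 10.60 and 10.08 in WT replicates 1 to 5. It fell by 3.80 on the log2 scale (limma, adjusted p = 0.0164), and WT replicate 1 lay among the KO values. That call was lost with KO replicate 2 and WT replicate 4 left out (limma, adjusted p = 0.0736). For Cfhr2 they were the lowest KO and the highest WT array, so leaving them out shrinks the change. KO replicate 2 was also the lowest KO array for Cpn1.

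Of 9 receptors and binding proteins, 1 rose and none fell, a share of 11.1% against 26.7% of all probe sets. Itgam, the alpha chain of complement receptor 3 on myeloid cells, read 8.37, 6.64, 6.35, 6.14 and 6.32 in KO replicates 1 to 5, against 5.28, 5.47, 5.21, 4.82 and 5.27 in WT replicates 1 to 5. The groups did not overlap, with a change of 1.56 and a standard error of 0.36 (limma, adjusted p = 0.00712). It was 1.15 without KO replicate 1 (limma, adjusted p = 0.000211). Its partner chain gene Itgb2 changed by 0.07 (limma, adjusted p = 0.751).

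Markers of myeloid cells, which make and sense complement in tissue, went different ways beside these values. Of 12 measured leukocyte and macrophage markers 4 rose, 1 fell and 7 did not pass; 41.7% passed, against 26.7% of all probe sets, and the median change was -0.05. The sum of their log2 levels was 72.4 to 74.4 in KO and 66.8 to 70.2 in WT. Without Cd14 it was 60.9 to 63.1 in KO and 61.6 to 63.1 in WT. Lyz2, which fell, stayed in that second sum, at 4.32 to 4.78 in KO and 8.50 to 9.10 in WT. Single genes with large changes move such sums, so an overlap does not show the other markers to be level. Those that rose were Cd14 (4.70), Itgam (1.56), Csf1r (1.53) and Mrc1 (1.46), and Lyz2 changed by -4.18. The pan-leukocyte gene Ptprc averaged 5.49 ± 0.10 in KO and 5.70 ± 0.21 in WT (SD, n = 5 each). Ptprc, Adgre1, Tyrobp and Fcer1g did not pass and did not reach the 95th percentile of the negative controls in any array. Of those that rose, Mrc1 also stayed under that percentile in every array, and Csf1r and Itgam were above it in 1 array each. No lymphocyte or endothelial marker of 5 each passed, and none of them reached the 95th percentile of the negative controls in any array. Of 8 fibroblast markers 1, Lum, passed with a change of -0.39, a share of 12.5% against 26.7% of all probe sets. Lum did not exceed the negative control median in any array. Of 5 hepatocyte markers, included because liver is the main source of plasma complement, Alb (-1.17) and Serpina1a (-0.44) were lower in KO and none was higher. The share of hepatocyte markers that passed was 40%, and Alb and Serpina1a did not reach the 95th percentile of the negative controls in any array. The part of these markers in the complement values was not tested.

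Single arrays stood at the ends of many of these ranges. KO replicate 2 was the lowest KO array for 5 of the 8 complement genes and for 10 of the 45 other pathway genes. Over all probe sets it was the lowest KO array for 18.3%. WT replicate 4 was the highest WT array for 5 of the 8 and for 12 of the 45 other pathway genes, against 28.4% of all probe sets. KO replicate 1 was the highest KO array for 3 of the 8 and for 19 of the 45 other pathway genes, against 18.3% of all probe sets. The genes share the same RNA samples, so these counts describe the arrays and were not tested.

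**Figure D3:**
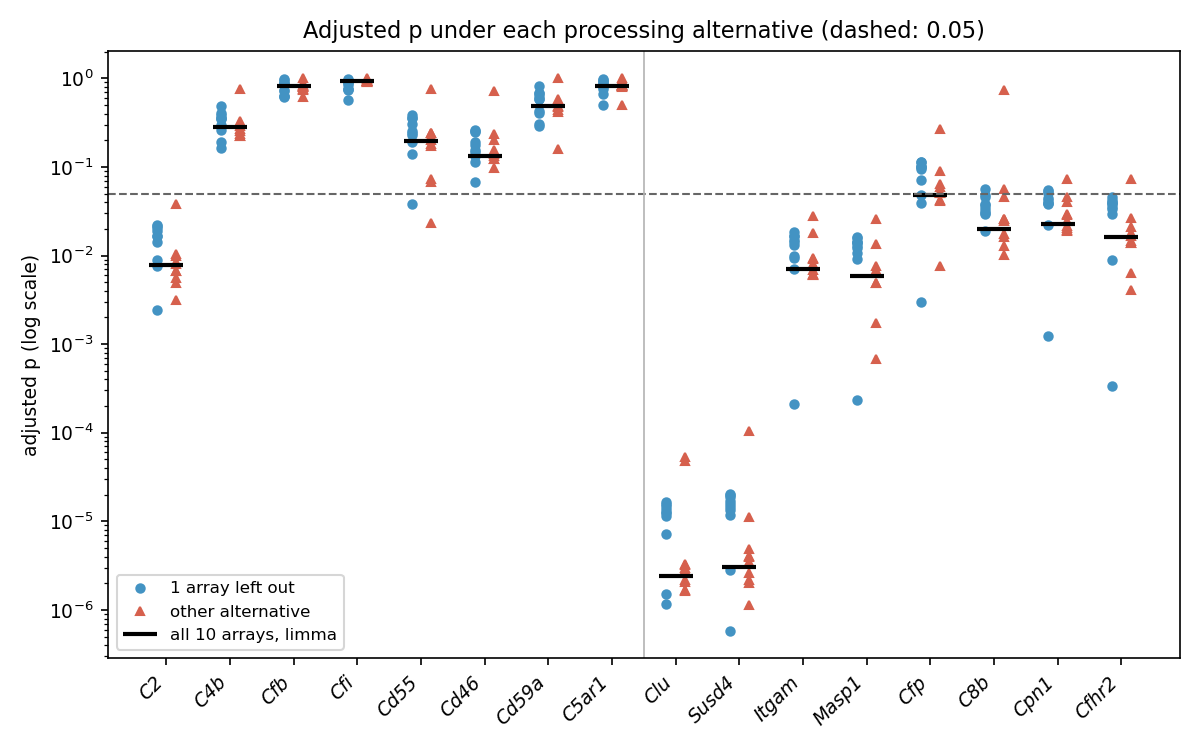
Adjusted p (vertical log axis) of the 8 complement genes (left of the line) and the 8 other pathway genes that passed (right of the line). Black bars are the fit on all 10 arrays, blue points the fits with 1 array left out, red triangles the other alternatives, and the dashed line is 0.05. C2 stays under the line throughout, Cd55 crosses it in 2 alternatives, and Cfp lies on both sides.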

How the data were processed

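Total RNA of 5 KO and 5 WT mouse intestinal organoid samples was hybridized to separate arrays after biotin labelling of 100 ng, per the labels' protocols. The values the authors deposited are log2 levels of probe sets; the submitters' processing notes name RMA and limma. Their versions, the genome build and whether arrays were normalized together were not given in the sources used here. Changes of genes near the background of an array can be understated. Of 28846 probe sets, 6640 were controls and 19572 were paired with 1 symbol.

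The levels were compared as deposited with limma 3.58.1 (R 4.3.3; lmFit and eBayes, all probe sets), with Benjamini-Hochberg adjustment over the 19572 and a threshold of 0.05. A gene was read from its brightest probe set on average. Tables and figures used pandas 2.3.3 and matplotlib 3.10.9 under Python 3.11.15. The comparison step was tested on simulated data.

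The complement genes and lists were chosen with earlier results of these data known. The text names all 8 measured genes, Nfkbia, pathway genes that passed, and the paralogs and receptor partners C4a, Cd55b, Cd59b, Cr1l, C3ar1 and C5ar2; Itgb2 was added after its value was seen. A ranking of genes by likeness to C3 was not run, since C3 is unnamed here. Alternatives changed normalization, filter, variance model, array weights, replicate block, adjustment, probe set rule, null hypothesis and arrays. Precision is limited by the number of arrays; within groups, probe sets had a median SD of 0.20 (KO) and 0.21 (WT). Some genes of the pathway are not reported here.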

Additional observations from a re-analysis of the deposited data

Results flagged for a closer look

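In 6 of 72 groups of 5 arrays examined (36 genes, both genotypes), 1 array stood apart by the ratio of its gap to the group's range; chance gives about 1 in 20. Itgam read 8.37 in KO replicate 1, with the next KO array at 6.64. Alb read 5.35 in KO replicate 2, with the next KO array at 4.93. C4b read 6.79 in WT replicate 5, with the next WT array at 6.58; its KO replicate 1, at 8.46, was farther from its neighbour in log2 units but did not reach the ratio in the wider KO range. Cfhr2 read 5.18 in WT replicate 1, with the next WT array at 9.42, and its change without that array was -4.79 (limma, adjusted p = 0.000336). Alb read 5.30 in the same WT array, with the next at 6.24. Nfkbia read 9.85 in WT replicate 5, with the next WT array at 9.19.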

How the results depend on the processing

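C2 was higher in KO and past the threshold in all 20 alternatives, and no complement gene passed as lower in KO in any of them. The count of complement genes higher in KO was 1 to 2 when 1 array was left out. It was 2 without KO replicate 2 and WT replicate 4 together. Cd55 was the gene added. For Cd55 this pair held the lowest KO and the highest WT array, so leaving it out raises the change. Other pathway genes lower in KO numbered 3, 2 to 5 when 1 array was left out and 5 with array weights; those higher numbered 4 to 6 over all alternatives. Over all genes 5224 probe sets passed, 4344 to 5187 when 1 array was left out, and 3034 against a change of 1.2-fold. Of the named genes that did not pass, Cfb, Cfi, C5ar1, Cd59b, Cr1l and C5ar2 changed sign in some alternatives. C4b, Cd55, Cd59a, Cd46, C4a, Cd55b and C3ar1 kept their sign in every alternative that gave them a value. Without KO replicate 2 and WT replicate 4, Cfb was 0.16, Cfi 0.0072, Cd59b 0.014 and Cr1l 0.069. KO replicate 2 was the lowest KO array for Cfb and Cr1l, and WT replicate 4 the highest WT array for Cfb. Leaving out a low KO and a high WT array raises a change by construction. Cr1l was 0.0045 with array weights, and C5ar2 was 0.028 with cyclic loess. With 1 array left out, Cfb ranged from -0.19 to 0.05, Cfi from -0.44 to 0.26, C5ar1 from -0.019 to 0.12, Cd59b from -0.094 to 0.019, Cr1l from -0.065 to 0.046 and C5ar2 from -0.060 to 0.054. The causes of these shifts were not tested. With the replicate number as a block, C2 changed by 0.93 (limma, adjusted p = 0.00494). Cfp and C8b lost their calls (limma, adjusted p = 0.0504 and 0.0566), and 4913 probe sets passed. The numbers were not taken as pairs, since the labels do not say that a number marks a shared source. Deviations of same-numbered arrays correlated at -0.07 to 0.36, which does not settle whether they are pairs. Cd46 and Cd59a had no value with the dimmest 25% of probe sets left out, and neither did C5ar2.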
